A study of Homo sapiens with 6 samples.

Results

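This account covers 28 genes of cholesterol synthesis, its regulation and the movement of sterols through the cell, chosen by symbol from their roles in the pathway. All 28 were among the 19475 gene symbols of the count table, and all 28 passed the filter on low counts and were tested among 13794 genes. By role they comprised 7 genes of the early mevalonate pathway, 11 of the late sterol pathway, 5 regulators and 5 genes of sterol uptake and transport. The last role held a sterol carrier, lysosomal transfer proteins and exporters, and no lipoprotein receptor. The measurements are RNA sequencing of MH7A, a single line of synovial fibroblasts from a patient with rheumatoid arthritis that was immortalised with a viral T antigen. All cells received TNFα, at 10 ng/ml. In the TNF group (n = 3, sample numbers 2, 8 and 14) nothing else was added, and in the LED group (n = 3, sample numbers 4, 6 and 10) the cells also received 630 nm red light for 15 min, 3 times. The comparison asks what differed with light in TNFα-treated cells, and it has no group without TNFα, so an effect of the cytokine itself was not measured.

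Cells make cholesterol from acetyl units in a long chain of steps. Early enzymes build mevalonate and then isoprenoid units, and late enzymes join these into squalene, close the rings to lanosterol and trim lanosterol to cholesterol. Supply is sensed in the endoplasmic reticulum. When sterols are scarce, SCAP escorts the SREBP transcription factors to the Golgi for cleavage, and the cleaved factors switch on most synthesis genes together; when sterols are plentiful, INSIG proteins hold SCAP back. Excess sterol activates the LXR receptors, which raise the exporters ABCA1 and ABCG1.

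Total estimated counts per library ran from 86000253 to 108074289, and 14079 to 14943 genes were above 0. About 4 units of the deposited count appeared to be worth 1 sequenced fragment. All 10 fibroblast markers examined, among them COL1A1, VIM and PDGFRB, were above 1 CPM (counts scaled to a common depth, on library sizes adjusted by TMM) on average. Of 10 markers of leukocytes, endothelium and epithelium, 8 had a mean below 1 CPM, and CD3E, MS4A1, CDH5 and KRT5 were at 0 in every library. The summed level of these 10 markers was 94.1 to 138 CPM with TNF and 115 to 155 CPM with LED, almost all of it from the lysosomal gene CD68. In a list of 10 heat shock genes, all 10 had positive log2 fold changes with LED. Of these, 9 passed the edgeR test described below (adjusted p below 0.05), against 2.44% of all tested genes in that direction. The list summed to 5906 to 6220 CPM with TNF and 31072, 44978 and 21724 CPM in LED libraries 4, 6 and 10. In a list of 10 proliferation genes, all 10 had negative log2 fold changes. Of these, 6 passed the same test, against 2.73% of all tested genes in that direction. The list summed to 850.5, 1440 and 978 CPM in TNF replicates 2, 8 and 14 and 480.4 to 548 CPM with LED. TNF replicate 8 and LED replicate 6 stood apart from the rest of their groups across the whole table. Chi-square per degree of freedom against the other libraries of the same group was 97.3 and 130.5 for TNF replicate 8 and 73.5 and 109 for LED replicate 6, while the remaining pairs had 26.9 with TNF and 26.7 with LED.

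No cholesterol gene passed the test between the groups. With edgeR's quasi-likelihood test and Benjamini-Hochberg adjustment over all genes, 0 of 28 members had an adjusted p below 0.05, where 5.17% of all tested genes did, 2.44% in the higher and 2.73% in the lower direction. With the limit at 0.1 there were 2 members, ACAT2 and LSS, both lower, where 5.63% of all genes were lower. At an unadjusted p below 0.05 there were 5 members (ACAT2, MVK, LSS, SCAP and ABCA1), all with lower means with LED, against 22.7% of all genes. DESeq2 called 4 members, all lower (ACAT2, MVK, LSS and ABCA1), where it called 6.37% of all genes lower, and limma-voom called 0. The median log2 fold change was -0.24 over the members and 0.01 over all genes tested, and 18 members had a negative sign, as had 49.2% of all genes. Groups did not overlap for 7 members, all with LED below TNF, and for 32.4% of all tested genes, 16.2% in that direction. In bulk RNA, fewer cells with a transcript and less of it per cell cannot be told apart. For 18 of the 28 members the 95% interval of the difference lay inside 2-fold in both directions. These intervals were taken gene by gene, without adjustment for the number of members. They cover only the variation among these samples.

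**Figure D1:**
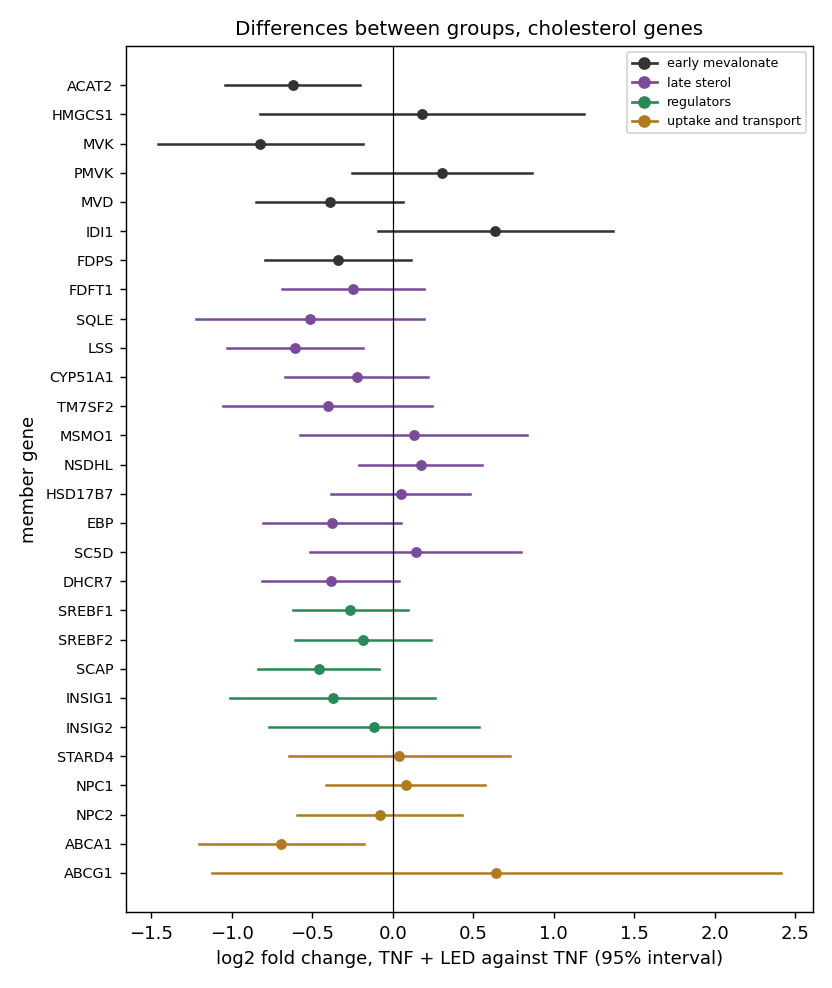
Log2 fold change of each cholesterol gene with TNF + LED against TNF (points, x axis) and its 95% interval from edgeR (lines), coloured by role. Points lie on both sides of 0, the intervals of 5 members exclude 0, and ABCG1 has the widest interval.

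The early mevalonate genes were split in direction. Their median log2 fold change was -0.34 (-0.16 without TNF replicate 8), with 4 negative and 3 positive, and none passed the test. ACAT2, the cytosolic thiolase that makes acetoacetyl-CoA for the pathway, had 36.4, 52.5 and 40.4 CPM in TNF libraries 2, 8 and 14 and 27.1, 26.5 and 30.3 CPM in LED libraries 4, 6 and 10. All LED libraries were below all TNF libraries. Its log2 fold change was -0.62 ± 0.19 (SE, edgeR adjusted p = 0.0877). In GENCODE, exon bases of ACAT2 also lie in opposite-strand genes, 33.9% in the non-coding SOD2-OT1, 26.5% in SOD2 and 9.23% in TCP1. TCP1, a chaperonin subunit, rose by 1.41 on the log2 scale (adjusted p = 0.0147), and SOD2, the mitochondrial superoxide dismutase, had a log2 fold change of 0.07 (adjusted p = 0.745). Whether counting used strand is not stated in the labels, so reads of the shared bases may have been given to any of these genes.

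MVK, the kinase that phosphorylates mevalonate, had 18.8, 26.2 and 20.6 CPM in TNF libraries 2, 8 and 14 and 13.8, 7.37 and 15.9 CPM in LED libraries 4, 6 and 10. The groups did not overlap, and LED replicate 6 was the lowest by far. The log2 fold change was the most negative of the members, at -0.82 ± 0.28 (edgeR adjusted p = 0.125). MVD, which decarboxylates mevalonate diphosphate to the first isoprenoid unit, had 47.5 ± 4.68 CPM with TNF and 36.2 ± 8.49 CPM with LED (SD, n = 3 each), and FDPS, which condenses these units to farnesyl diphosphate, had 115 ± 25.8 and 90.9 ± 10.1 CPM. Both had overlapping groups. PMVK, the second kinase of the pathway, had 11.2 ± 3.79 CPM with TNF and 13.9 ± 1.81 CPM with LED, again overlapping.

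IDI1, which isomerises isopentenyl diphosphate, leaned the other way. It had 39.9, 77.1 and 34.3 CPM in TNF libraries 2, 8 and 14 and 79.0, 56.3 and 100.1 CPM in LED libraries 4, 6 and 10. TNF replicate 8 lay within the LED range, and LED replicate 6 was the lowest of its group. The log2 fold change was 0.64 ± 0.32 (edgeR adjusted p = 0.284). Without TNF replicate 8 it was 1.08 (adjusted p = 0.0585), and with both TNF replicate 8 and LED replicate 6 left out it was 1.27 (adjusted p = 0.00599). It was 0.42 without TNF replicate 14 (adjusted p = 0.564) or LED replicate 10 (adjusted p = 0.550). The double omission took out the libraries that stood apart in these same data. That choice narrows the spread within groups, so its adjusted p is likely too small. In that fit 5.51% of all genes were called higher.

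HMGCS1, the synthase that forms HMG-CoA, varied more within the groups than between them. It had 94.5, 44.3 and 87.8 CPM in TNF libraries 2, 8 and 14 and 112, 31.9 and 113 CPM in LED libraries 4, 6 and 10. One library of each group was low, and the other LED libraries were above every TNF library. The highest LED library exceeded the lowest 3.55-fold and the highest TNF library exceeded the lowest 2.13-fold, while the groups differed 1.14-fold (log2 fold change 0.18 ± 0.45, edgeR adjusted p = 0.849). Leaving out any of TNF replicate 8, LED replicate 4 and LED replicate 10 turned its sign negative.

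**Figure D2:**
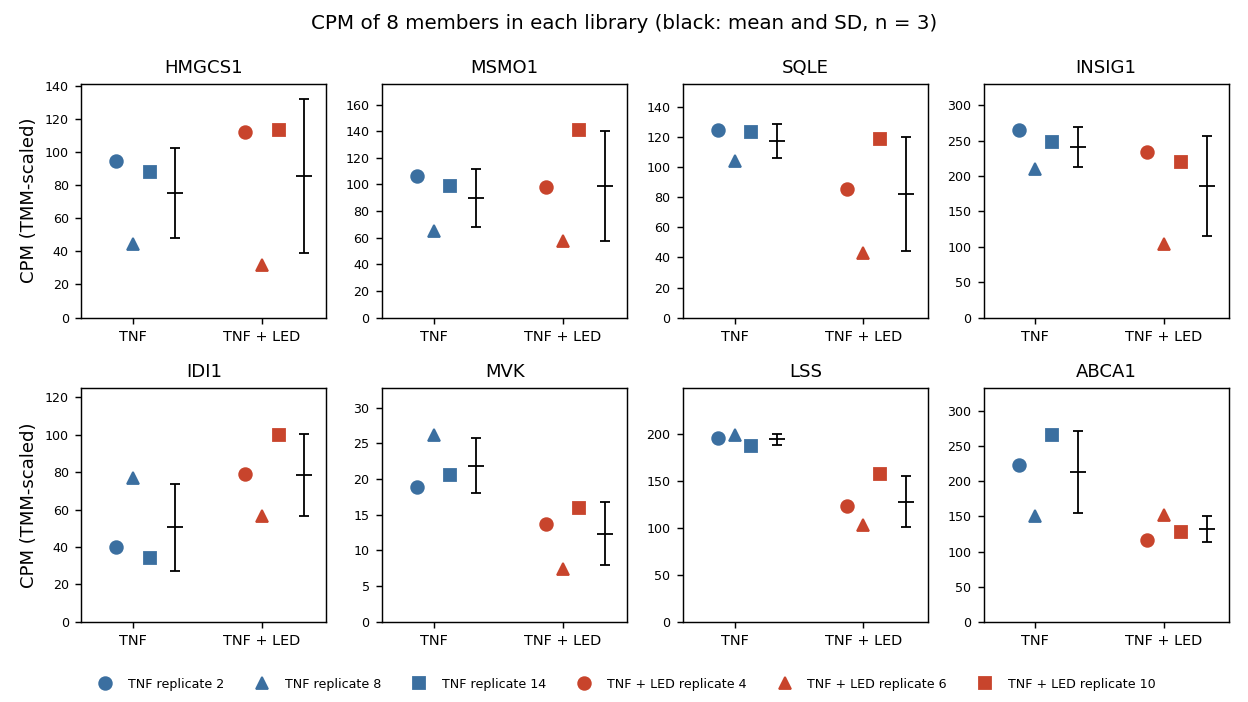
CPM of 8 cholesterol genes in each library (symbols, y axis from 0), with the mean and SD of each group in black (n = 3). LED replicate 6 (red triangle) is the lowest LED library for HMGCS1, MSMO1, SQLE, INSIG1, IDI1, MVK and LSS, and the LED libraries of LSS and MVK lie below all TNF libraries.

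Among the 11 late sterol genes 7 had negative and 4 positive signs, with a median log2 fold change of -0.25 (-0.16 without LED replicate 6) and no gene past the test. FDFT1, which makes squalene and so commits isoprenoids to sterols, had 144 ± 17.6 CPM with TNF and 121 ± 25.1 CPM with LED. SQLE, which oxidises squalene at a rate-limiting step, had 125, 104 and 123 CPM in TNF libraries 2, 8 and 14 and 85.3, 42.7 and 119 CPM in LED libraries 4, 6 and 10. Only LED replicate 10 fell within the TNF range. The difference was -0.51 ± 0.32 on the log2 scale (edgeR adjusted p = 0.379), -0.20 without LED replicate 6 and -0.88 without LED replicate 10.

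LSS, the cyclase that closes the rings to lanosterol, showed the tightest TNF group. It had 196, 199 and 187 CPM in TNF libraries 2, 8 and 14 and 123, 103 and 157 CPM in LED libraries 4, 6 and 10. All LED libraries lay below all TNF libraries, and the LED group was the more spread of them. The log2 fold change was -0.60 ± 0.19 (edgeR adjusted p = 0.0962, DESeq2 adjusted p = 0.0366). CYP51A1, which demethylates lanosterol, had 82.6 ± 12.3 CPM with TNF and 70.6 ± 13.0 CPM with LED, with overlapping groups. In GENCODE 79.4% of its exon bases are shared with another annotated gene on the same strand, so its counts are uncertain even if counting used strand. If it did not, opposite-strand overlaps would matter too. Besides ACAT2, these covered 18.6% of exon bases in FDPS, 15% in HMGCS1 and 14.8% in IDI1, and smaller shares in several other members.

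The enzymes that trim lanosterol to cholesterol showed small differences. DHCR7, which catalyses the last step of one branch, had 76.5 ± 9.02 CPM with TNF and 58.6 ± 10.5 CPM with LED, and the isomerase EBP had 19.3 ± 3.69 and 14.8 ± 0.900 CPM. The groups of EBP did not overlap, and neither did those of the sterol reductase TM7SF2, at 2.12 ± 0.190 and 1.60 ± 0.323 CPM. NSDHL (44.5 ± 5.10 and 50.1 ± 5.13 CPM), a sterol dehydrogenase, and HSD17B7 (5.92 ± 0.271 and 6.13 ± 0.459 CPM), a keto-sterol reductase, had overlapping groups. HSD17B7 was the steadiest member, with the highest library of a group at most 1.15 times the lowest.

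MSMO1, the C4 methyl oxidase, and SC5D, the desaturase that acts late in the chain, repeated the pattern of HMGCS1. MSMO1 had 106, 65.4 and 98.6 CPM in TNF libraries 2, 8 and 14 and 97.8, 57.6 and 141 CPM in LED libraries 4, 6 and 10. SC5D had 79.5, 38.0 and 68.5 CPM in the TNF replicates and 71.7, 49.5 and 84.0 CPM in the LED replicates, in the same order. In both genes TNF replicate 8 and LED replicate 6 were the lowest libraries of the 6. The group differences were 0.13 ± 0.31 and 0.14 ± 0.29 on the log2 scale (edgeR adjusted p = 0.844 and 0.816), and both signs turned negative without TNF replicate 8 or LED replicate 10.

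All 5 regulators had negative signs, with a median log2 fold change of -0.26 (-0.086 without LED replicate 6) and no gene past the test. SCAP, the escort of the SREBP factors, had 55.9, 67.2 and 59.2 CPM in TNF libraries 2, 8 and 14 and 44.6, 39.6 and 48.2 CPM in LED libraries 4, 6 and 10. The groups did not overlap, and the log2 fold change was -0.46 ± 0.17 (edgeR adjusted p = 0.141). SREBF1, which encodes the SREBP that favours fatty acid genes, had 48.8 ± 3.98 CPM with TNF and 40.7 ± 2.00 CPM with LED, also without overlap. SREBF2, which encodes the one that favours cholesterol genes, had 145 ± 14.9 and 127 ± 23.8 CPM with overlapping groups.

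INSIG1, the retention protein that is itself an SREBP target, had 264, 209 and 249 CPM in TNF libraries 2, 8 and 14 and 234, 104 and 219.7 CPM in LED libraries 4, 6 and 10. LED replicate 6 was far below the rest, and the other LED libraries lay within the TNF range. Its log2 fold change was -0.37 ± 0.28 (edgeR adjusted p = 0.483), -0.09 without LED replicate 6 and -0.56 without LED replicate 4. INSIG2, which has the same function but does not depend on SREBP cleavage in the same way, had 11.1, 6.19 and 12.4 CPM with TNF and 7.88, 7.72 and 11.8 CPM with LED, in the same order of replicates. Its lowest library was TNF replicate 8, and the groups overlapped.

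Genes of the uptake and transport role showed no shared direction, with 3 positive and 2 negative signs. Their median log2 fold change was 0.04 (-0.17 without LED replicate 6). Lipoprotein receptors were not in this role but in a further list, described below. ABCA1, which exports cholesterol to lipid-poor apolipoprotein, had 223, 151 and 267 CPM in TNF libraries 2, 8 and 14 and 116, 152 and 127 CPM in LED libraries 4, 6 and 10. The groups overlapped only through TNF replicate 8, which lay just below LED replicate 6. The log2 fold change was -0.69 ± 0.23 (edgeR adjusted p = 0.112, DESeq2 adjusted p = 0.0438). Without TNF replicate 8 it was -0.89 and passed the test (adjusted p = 0.0351), making ABCA1 the 1 member called lower there, where 2.12% of all genes were called lower. It was -0.50 without TNF replicate 14 (adjusted p = 0.324) and -0.60 without LED replicate 4 (adjusted p = 0.331).

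NPC1 and NPC2 hand cholesterol out of the lysosome, one in the membrane and one in the lumen. NPC1 had 166 ± 23.9 CPM with TNF and 176 ± 48.5 CPM with LED, and NPC2 had 193 ± 39.9 and 183 ± 46.7 CPM. Both were highest in TNF replicate 8 and LED replicate 6, at 194 and 231 CPM for NPC1 and 238 and 236 CPM for NPC2. STARD4, a soluble sterol carrier and SREBP target, went the opposite way, with 76.7, 33.5 and 76.1 CPM in TNF libraries 2, 8 and 14 and 63.5, 52.2 and 75.9 CPM in LED libraries 4, 6 and 10. ABCG1, the exporter to high-density lipoprotein, was near the limit of detection, at 0.148 ± 0.0539 and 0.231 ± 0.143 CPM, and its deposited counts of 10 in TNF replicate 2 and 8 in LED replicate 4 were below the 12 that 3 fragments are worth. No change of ABCG1 was detectable at this depth.

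**Figure D3:**
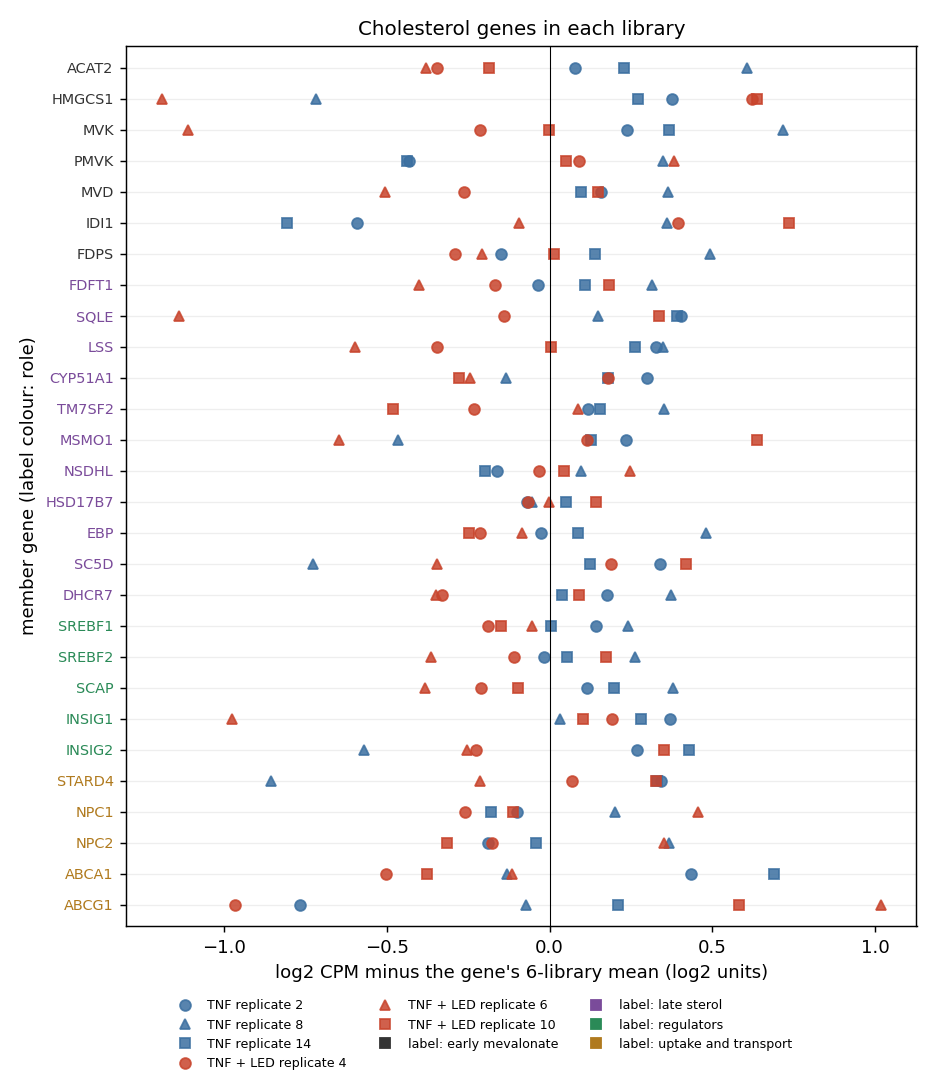
Each cholesterol gene in each library, as log2 CPM minus the gene's mean over 6 libraries (x axis), with gene labels coloured by role. The triangles, TNF replicate 8 and LED replicate 6, are the outermost points of many genes, and the red triangle is far to the left for HMGCS1, MVK, SQLE and INSIG1.

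For 24 of the 28 members the highest library of a group exceeded its lowest by more than the groups differed, and 81.9% of all tested genes were of this kind. The exceptions were ACAT2, LSS, SREBF1 and SCAP. LED replicate 6 was below the mean of the other LED libraries in 6 of 7 early mevalonate genes, 8 of 11 late sterol genes, 4 of 5 regulators and 1 of 5 transport genes, against 51.2% of all genes. It was below 0.6 of that mean, a limit chosen after the values were seen, for 5 members (HMGCS1 at 0.283, SQLE at 0.419, INSIG1 at 0.459, MSMO1 at 0.483 and MVK at 0.497), against 7.26% of all genes. Of the 18 synthesis genes, 11 ran in the order LED replicate 6, then 4, then 10 from lowest to highest, and 25.9% of all genes did so. That order, too, was chosen after the values were seen. The summed heat shock list ran in the reverse order in these libraries, and 9 of its 10 genes were highest in LED replicate 6. Whether the heat shock level had a part in the order of the synthesis genes was not tested.

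TNF replicate 8 had a different profile. It was the highest of 6 libraries for 13 members, among them MVK, MVD, FDPS, FDFT1, LSS and DHCR7, and the lowest for 3, SC5D, INSIG2 and STARD4. Over all 13794 tested genes it was the highest for 3961 and the lowest for 4204, more than any other library in both. The libraries TNF replicate 8 and LED replicate 6 were looked at together because they stood apart in these same data. They were together the lowest of the 6 for 6 members (HMGCS1, MSMO1, SC5D, INSIG1, INSIG2 and STARD4). That was 21.4% of the members, against 12.6% of all genes. Together they were the highest for 4 members (PMVK, NSDHL, NPC1 and NPC2), 14.3%, close to the 12.2% of all genes. TNF replicate 8 also had the highest summed level of the proliferation list. Whether that level had a part in these values was not tested.

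The promoters of the members with TNF replicate 8 and LED replicate 6 as the 2 lowest libraries are shown, with any CCAAT box marked. This box is the binding sequence of NF-Y, which acts beside SREBP at many sterol genes. It was found in 16 of the 24 members with a matched promoter, so it is not particular to those shown. The stretches are upstream of the gene start, from RefSeq on GRCh38.p14, read 5′ to 3′ on the strand of the gene and limited to bases outside annotated exons, so that 1 of the 2 HMGCS1 matches is not shown. Capitals mark CCAAT or its reverse complement ATTGG. SC5D is not shown because its upstream window lies within annotated exons.
HMGCS1 (chr5:43313513-43313662, minus strand): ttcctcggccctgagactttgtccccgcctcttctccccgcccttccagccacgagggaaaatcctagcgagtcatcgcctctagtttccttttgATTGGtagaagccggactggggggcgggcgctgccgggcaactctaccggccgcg
MSMO1 (chr4:165327443-165327622, plus strand): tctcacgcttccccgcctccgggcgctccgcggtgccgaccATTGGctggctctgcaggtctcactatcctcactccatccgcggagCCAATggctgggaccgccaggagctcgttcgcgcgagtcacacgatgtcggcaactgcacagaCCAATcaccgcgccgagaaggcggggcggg
INSIG1 (chr7:155297628-155297775, plus strand): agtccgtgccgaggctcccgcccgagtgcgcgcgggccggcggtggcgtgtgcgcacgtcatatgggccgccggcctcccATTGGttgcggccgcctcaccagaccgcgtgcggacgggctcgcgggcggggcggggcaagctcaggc
STARD4 (chr5:111512591-111512770, minus strand): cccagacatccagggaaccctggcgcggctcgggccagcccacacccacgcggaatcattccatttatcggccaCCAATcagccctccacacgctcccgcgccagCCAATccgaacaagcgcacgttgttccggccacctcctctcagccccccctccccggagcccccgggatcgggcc
INSIG2 (chr2:118088272-118088451, plus strand): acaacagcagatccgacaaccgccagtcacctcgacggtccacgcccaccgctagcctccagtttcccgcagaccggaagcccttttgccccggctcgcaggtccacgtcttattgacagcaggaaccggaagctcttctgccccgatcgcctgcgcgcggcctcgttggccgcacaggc

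Promoters of 24 of the 28 members were matched in RefSeq by symbol, 1 start per gene. CCAAT, on either strand within 250 bases upstream of the start, was found in 16 of these 24, in 8 of 9 late sterol genes, 4 of 6 early mevalonate genes, 2 of 5 regulators and 2 of 4 transport genes. It was found in 33% of all 27305 promoters of the table and in 34.3% of those of tested genes. MVK and NSDHL held 5 matches each, a pair of which share letters in NSDHL, and MSMO1 held 4, of which 3 lie in the stretch printed. Matches were also present in MVK, MVD, FDPS, LSS, TM7SF2, NSDHL, HSD17B7, EBP, DHCR7, SREBF2 and NPC2. In these genes TNF replicate 8 and LED replicate 6 were not the 2 lowest libraries. No match was found in INSIG2, in which they were. Whether a CCAAT box had a part in the values of these libraries was not tested. The strict sterol regulatory element TCACNCCAC, on either strand, was found in 1 member, SREBF2 at 133 bases upstream, apart from its CCAAT match at 106 bases, and in 0.875% of all promoters. A match is a run of letters and not evidence of binding, and other spellings of these elements were not searched.

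**Figure D4:**
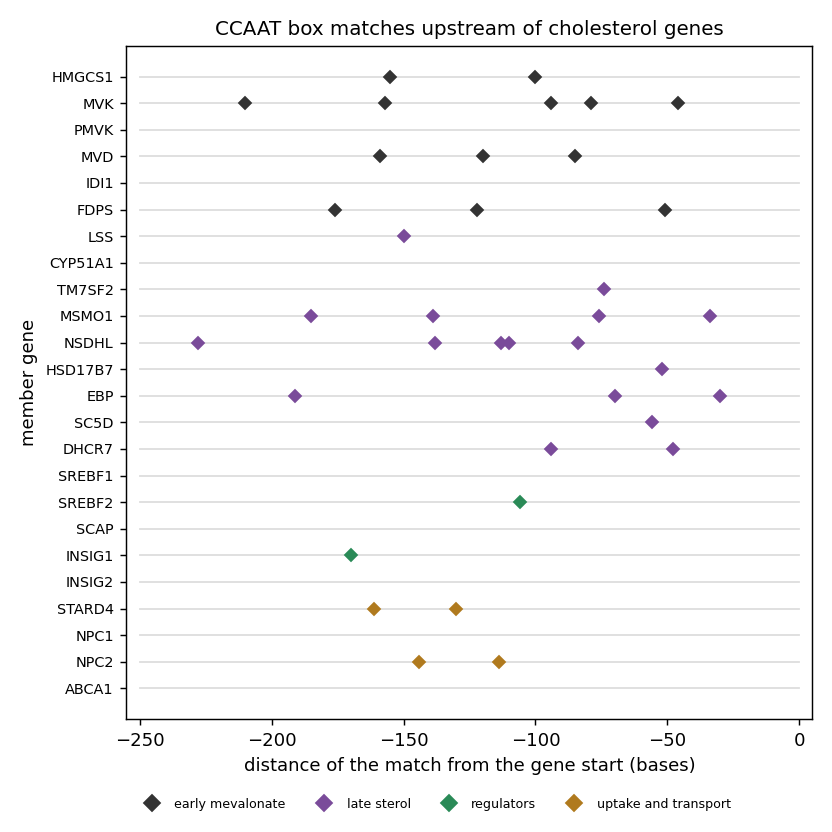
Position of each CCAAT match, on either strand, in the 250 bases upstream of the gene start (x axis, bases) for the 24 members with a RefSeq promoter, coloured by role. MVK and NSDHL have 5 matches each, and 8 members have none.

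Genes around the pathway were taken from lists that held no member. Of 14 fatty acid synthesis genes 1 rose and 13 did not pass, with a median log2 fold change of -0.14, where 2.44% of all tested genes rose. The one that rose was ELOVL5, an elongase of polyunsaturated fatty acids, which had 112 ± 2.28 CPM with TNF and 185 ± 28.7 CPM with LED and so rose by 0.73 ± 0.17 on the log2 scale (edgeR adjusted p = 0.0461). Its call was lost without any 1 of the 6 libraries (adjusted p up to 0.164) and with scaling by library totals alone (0.0699). Its log2 fold change ran from 0.64 to 0.85 with single libraries left out. Of 9 genes that process SREBP or degrade its partners, 0 passed and the median was -0.38. Negative signs were found in 8 of them and in 49.2% of all tested genes. RNF145, a ubiquitin ligase of the endoplasmic reticulum, had the lowest p of the 9, at 159 ± 29.5 CPM with TNF and 97.3 ± 27.3 CPM with LED (adjusted p = 0.117).

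Of 14 genes for sterol esters, lipoprotein receptors and sterol transfer, 2 fell, 1 rose and 11 did not pass, with a median of -0.20. Of all tested genes, 2.73% fell and 2.44% rose. NCEH1, a hydrolase that frees cholesterol from its esters, had 219, 189 and 208 CPM in TNF libraries 2, 8 and 14 and 73.5, 57.7 and 21.0 CPM in LED libraries 4, 6 and 10. All LED libraries were far below all TNF libraries, and NCEH1 fell by 2.01 ± 0.38 on the log2 scale (edgeR adjusted p = 0.0264). LRP8, a receptor of the lipoprotein receptor family, had 42.3, 30.0 and 38.1 CPM in the TNF replicates and 17.6, 10.9 and 18.4 CPM in the LED replicates. It fell by 1.23 ± 0.24 (adjusted p = 0.0278), with no overlap. OSBP, which exchanges sterol between the endoplasmic reticulum and the Golgi, had 91.4 ± 3.63 CPM with TNF and 149 ± 20.9 CPM with LED and rose by 0.70 ± 0.17 on the log2 scale (adjusted p = 0.0470).

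The calls of NCEH1, LRP8 and OSBP were lost in some fits with a library left out, and that of OSBP also with another scaling. Leaving out a library shrinks a group, and 0.574% to 5.25% of all genes were then called, against 5.17% with all 6. With single libraries left out the log2 fold change ran from -2.37 to -1.65 for NCEH1, -1.37 to -1.03 for LRP8 and 0.58 to 0.79 for OSBP. The NCEH1 call was lost without TNF replicate 8, TNF replicate 14 or LED replicate 6 (adjusted p up to 0.118) and with TNF replicate 8 and LED replicate 6 both left out (0.236), that of LRP8 when TNF replicate 14 or 1 of the LED libraries was left out (up to 0.0872), and that of OSBP without any 1 library (up to 0.151) or with scaling by library totals alone (0.0516). Among 12 genes of the non-sterol isoprenoid branch 0 passed (median -0.16), with the lowest p for ICMT, which methylates prenylated proteins (adjusted p = 0.179). Among 8 genes of oxysterol sensing and LXR targets 0 passed (median 0.05). MYLIP, an LXR-induced ubiquitin ligase for lipoprotein receptors, had the lowest p there, with 1.88, 1.74 and 1.35 CPM in TNF libraries 2, 8 and 14 and 3.63, 5.49 and 2.43 CPM in LED libraries 4, 6 and 10 (adjusted p = 0.0710). ABCA1, another LXR target, had the opposite sign.

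**Figure D5:**
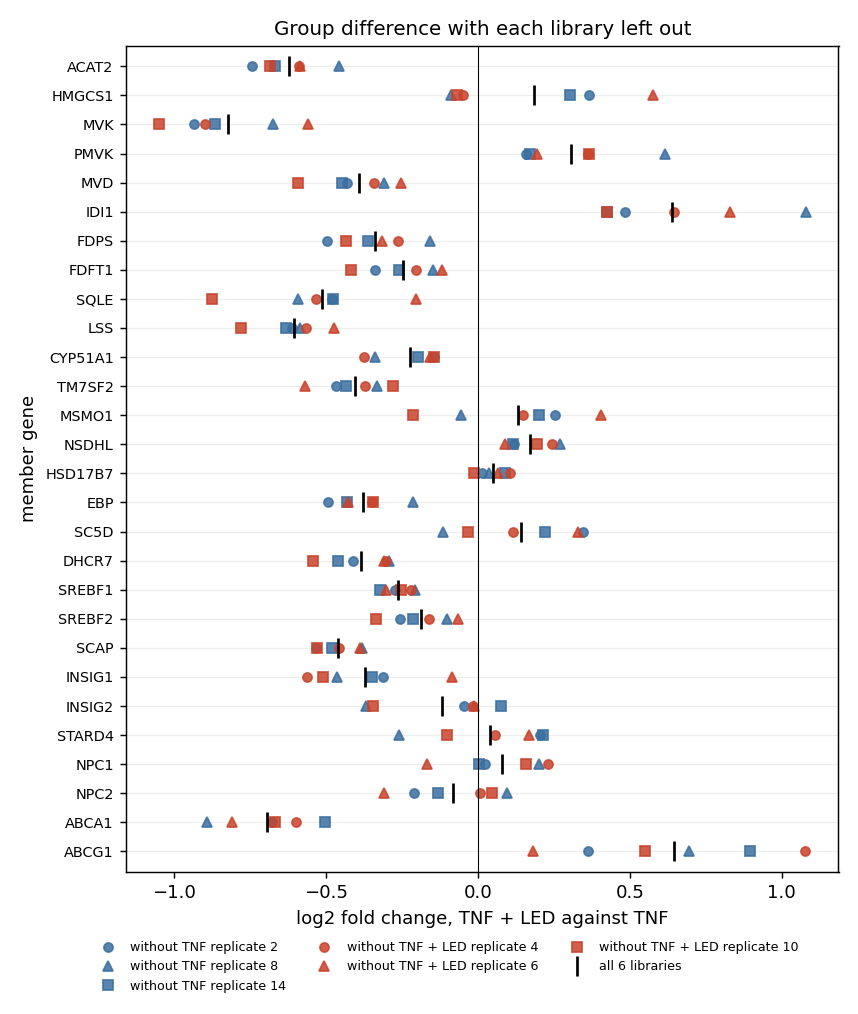
Log2 fold change of each cholesterol gene with TNF + LED against TNF (x axis) with all 6 libraries (black bars) and with each library left out (symbols). IDI1 moves furthest to the right without TNF replicate 8, at 1.08, and HMGCS1, MSMO1, SC5D and STARD4 take values on both sides of 0.

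Leaving out TNF replicate 8 and LED replicate 6 together, the libraries that stood apart, changed which members were called. With 2 libraries per group IDI1 (log2 fold change 1.27, edgeR adjusted p = 0.00599) and PMVK (0.51, adjusted p = 0.04995) were called higher and ABCA1 (-1.004, adjusted p = 0.00598) lower. In that fit 5.51% of all genes were called higher and 6.54% lower. Its adjusted p values are likely too small, because the libraries left out were chosen from these same data and their omission narrows the spread within groups. With all 6 libraries these genes had adjusted p of 0.284, 0.515 and 0.112.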

How the data were processed

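The authors deposited 1 table of estimated counts per gene symbol, as whole numbers, for 6 libraries. Per the labels' protocols, RNA was extracted with Trizol, depleted of ribosomal RNA and primed at random. HISAT2, StringTie, bcl2fastq 2.0, limma and DESeq2 are listed, with no roles, per the submitters' processing notes, which also give the mouse build mm10 although samples and symbols are human, so no gene coordinates from the table are given; promoter coordinates are those of RefSeq. Of values from 1 to 7, 41.8% equalled 4, so 1 fragment appeared to be worth about 4 units and libraries to hold 21500063 to 27018572 fragments. Counts were tested as deposited with edgeR 4.0.16 (filterByExpr, TMM, robust quasi-likelihood, two-sided, Benjamini-Hochberg over all genes, threshold 0.05) in R 4.3.3. The standard error is the log2 fold change divided by the square root of F, and 95% intervals use the t quantile at the fit's degrees of freedom. DESeq2 1.42.0 and limma-voom 3.58.1 were alternatives, with other filters, scalings, counts divided by 4 and omitted libraries. Deviations by library use log2 CPM with a prior count of 2. Exon overlaps come from GENCODE release 29. The fit was also run on simulated counts with known differences, drawn with the spread of each gene estimated from these data. Those counts held no library that stands apart, so that run does not check the calls against TNF replicate 8 or LED replicate 6.

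All 28 members are named. From each further list, called genes (up to 4) or the gene with the lowest p are named. Members and lists were chosen with earlier results of these data known. Separate cultures are not stated in the labels, and the tests therefore see only the variation among these 6 samples, possibly technical. Floors cover counting error only.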

Additional observations from a re-analysis of the deposited data

How the results depend on the processing

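No paired analysis was run because the labels state no pairing between the groups. Of all tested genes, 336 were higher and 377 lower with LED. DESeq2 gave 874 and 879, an adjusted p below 0.1 gave 695 and 776, and leaving out TNF replicate 8 and LED replicate 6 together gave 763 and 906. Leaving out single libraries gave 59 to 314 higher and 21 to 423 lower. No member was called with all libraries by edgeR. Members called lower numbered 4 with DESeq2, 2 at an adjusted p below 0.1 (ACAT2 and LSS), where 5.63% of all genes were lower, 0 to 1 with a single library left out and 1 with both left out, and 2 were then called higher. No member was called under the other filters, the other scalings, limma-voom or counts divided by 4. Medians by role ran, with single libraries left out, from -0.43 to -0.16 for early mevalonate, -0.34 to -0.16 for late sterol, -0.37 to -0.086 for regulators and -0.17 to 0.10 for uptake and transport, where the sign turned without LED replicate 6. With TNF replicate 8 and LED replicate 6 both left out they were -0.13, -0.21, -0.24 and -0.13. The uptake and transport median was also just below 0 with counts divided by 4 (-0.011) and the filter of 1 CPM in 3 libraries (-0.0032), which leave out ABCG1.

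Signs turned for members near 0, none of them called in any of these fits. With single libraries left out the log2 fold change ran from -0.089 to 0.58 for HMGCS1, -0.21 to 0.40 for MSMO1, -0.012 to 0.11 for HSD17B7, -0.11 to 0.35 for SC5D, -0.37 to 0.074 for INSIG2, -0.26 to 0.21 for STARD4, -0.17 to 0.23 for NPC1 and -0.31 to 0.10 for NPC2. With TNF replicate 8 and LED replicate 6 both left out it was 0.024 for SREBF2, -0.13 for STARD4 and -0.041 for NPC1. The cause of these turns was not tested. Depth limits ABCG1, which was not tested under the filter of 1 CPM in 3 libraries or with counts divided by 4.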
